A study of Homo sapiens with 6 samples.

Results

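The 10 genes described here are GPX4, GCH1, AIFM2, DHODH, ACSL3, ACSL4, LPCAT3, MBOAT1, MBOAT2 and POR. Their products affect how many oxidizable lipids a membrane holds and how lipid radicals and peroxides form or are removed. The 10 genes were chosen by symbol out of 36459 genes in the gene table. No filter on their values was used, but earlier results of these data were known. All 10 were among the 14626 genes that passed the expression filter and were tested. RNA was sequenced from PC9, an established human non-small cell lung cancer line that depends on EGFR signalling, in 3 libraries of untreated parental cells from 3 independent cultures, and in 3 libraries of persister (PS) cells, the cells left after 6 days in 15 µM erlotinib, an EGFR kinase inhibitor. Each PS library was a pool, with 9 independently treated cultures behind the 3 libraries. The comparison addressed how gene expression differed between PS cells and parental PC9, since PS cells of this line are studied for their sensitivity to ferroptosis. All 6 libraries come from a single line and no library combined erlotinib with a non-persister state, so the drug and the persister state cannot be told apart.

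Ferroptosis is a form of cell death in which polyunsaturated acyl chains of membrane phospholipids are peroxidized in an iron-dependent chain reaction. Acyl-CoA synthetases activate fatty acids and lysophospholipid acyltransferases place them into phospholipids, so these enzymes set which chains are exposed to oxidation. Glutathione peroxidase 4 reduces the lipid peroxides that form, while reduced coenzyme Q and tetrahydrobiopterin stop the radicals that carry the chain.

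The libraries held 29476725 to 34893782 gene counts each, and the 10 most abundant genes held between 5.42% and 6.3% of them. Messenger RNA of the mitochondrial genome took 1.9% to 3.37% of the counts in parental PC9 and 3.39% to 3.96% in PS cells, so the groups did not overlap, and its part in the results was not tested. Libraries of one group differed by more than sampling noise, so each was kept as a separate replicate. The epithelial markers EPCAM, KRT7, KRT8, KRT18, KRT19, CDH1, CLDN4 and CLDN7 were all measured, with summed levels of 8036 to 8675 CPM (normalized counts per 1000000 counts) in parental PC9 and 6388 to 6763 CPM in PS cells. Of these 8 markers 5 were lower in PS cells, 2 (KRT7 and CDH1) were higher and CLDN7 was neither. Of 14 markers of other cell types 9 did not pass the filter and CD3E was at 0 in every library. Their summed level was 90.2 to 92.8 CPM in parental PC9 and 47.3 to 53.9 CPM in PS cells. CD68 was at 74.8 and 21.1 CPM, COL1A1 at 10.2 and 28.3 CPM and PECAM1 at 4.37 and 0.214 CPM, and their part in the results was not tested. Of 8 proliferation markers 6 were higher in PS cells and none was lower. The study describes PS cells of this line as slowly cycling, so these 6 markers ran the other way, and the reason was not tested. MKI67 was at 223 ± 28.3 CPM in parental PC9 and 366 ± 13.3 CPM in PS cells (mean ± SD, n = 3 libraries). The part of proliferation in the changes below was not tested. In bulk RNA, fewer cells with a transcript and less of it per cell cannot be told apart.

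The coding part of GPX4 exon 1 (GRCh38, chr19:1104044-1104127, plus strand) is shown because it holds, in capitals, the start codons that tell apart the GPX4 transcripts compared below.
GPX4 exon 1 coding part: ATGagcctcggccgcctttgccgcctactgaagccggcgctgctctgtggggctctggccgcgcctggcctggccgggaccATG
Transcript GPX4-201 opens at base 1103994 and reads from the first ATG, which gives 197 residues with the leader that carries the protein to mitochondria. Transcript GPX4-210 opens at base 1104052, which lies 8 bases past the start of that first ATG, and reads from the second ATG, 27 codons further on, which gives 170 residues. GPX4-207, with 180 residues, also reads from the first ATG.

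The promoters of the 3 genes with the largest falls, ACSL3, LPCAT3 and MBOAT2, are shown for reference only, since no test here bears on them. They are the RefSeq windows of GRCh38.p14 before the gene start, cut where an annotated exon of the same strand begins. They lie at chr2:222860786-222860941 on the plus strand, at chr12:7018478-7018726 on the minus strand and at chr2:9003710-9003934 on the minus strand. Capitals mark matches to the GC box (GGGCGG) and the CCAAT box (CCAAT) on either strand.
ACSL3 promoter: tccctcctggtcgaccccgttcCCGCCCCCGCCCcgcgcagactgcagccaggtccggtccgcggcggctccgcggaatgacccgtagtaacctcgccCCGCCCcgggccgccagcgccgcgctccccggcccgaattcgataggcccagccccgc
LPCAT3 promoter: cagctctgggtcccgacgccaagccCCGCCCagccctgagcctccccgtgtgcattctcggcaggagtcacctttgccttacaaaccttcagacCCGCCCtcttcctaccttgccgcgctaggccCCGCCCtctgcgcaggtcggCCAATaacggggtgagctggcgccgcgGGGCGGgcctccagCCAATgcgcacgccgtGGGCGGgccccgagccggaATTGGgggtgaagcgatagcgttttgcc
MBOAT2 promoter: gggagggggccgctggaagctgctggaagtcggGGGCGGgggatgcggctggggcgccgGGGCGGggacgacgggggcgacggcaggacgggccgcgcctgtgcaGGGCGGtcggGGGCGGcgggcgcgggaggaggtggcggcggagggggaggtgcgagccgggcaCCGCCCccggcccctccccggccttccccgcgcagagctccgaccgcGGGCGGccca
In the full 250 bases before the start, GC boxes numbered 3 in ACSL3, 5 in LPCAT3 and 7 in MBOAT2, and 42.6% of all 35116 promoters of that length held at least 1. A CCAAT box occurred once in ACSL3 and 3 times in LPCAT3, against 32% of all promoters with a match. No match was found in these 3 windows for the E-box (CACGTG, in 6.34% of promoters), the antioxidant response element core (TGACNNNGC, in 10.9%) or the sterol regulatory element (TCACNCCAC, in 0.883%), each read on both strands, and no matches in these windows overlapped each other. GPX4, which did not pass the test below, had 3 starts in the RefSeq table, with 1 GC box and 2 CCAAT boxes before the start of GPX4-201, 1 and 3 before the start nearest to GPX4-210, and 4 and 0 before the start of GPX4-202. The windows of GPX4-201 and of the start nearest to GPX4-210 overlap, so a box can be counted in both. AIFM2 had 1 GC box and 1 antioxidant response element core, and ACSL4 had 3 GC boxes. DHODH had 3 GC boxes, 1 CCAAT box and 1 E-box.

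Of the 10 genes 3 were higher in PS cells and 5 were lower at an adjusted p-value under 0.01 in edgeR's quasi-likelihood test, while GPX4 and DHODH did not pass. Over all 14626 genes tested, 28.7% were higher and 28.1% were lower by the same rule, so more genes passed than did not, and the 30% and 50% of the 10 genes are read against that background. The groups did not overlap in normalized CPM for 9 of the 10 genes, against 71.3% of all genes tested. The median log2 fold change was -0.26 over the 10 genes and -0.006 over all genes tested. Of the 5 acyl chain enzymes ACSL3, LPCAT3, MBOAT1 and MBOAT2 were lower and ACSL4 was higher. Of the 4 peroxide and radical defence genes GCH1 and AIFM2 were higher, and POR, an electron donor, was lower. All of these are RNA levels, which need not follow protein. By western blot the study reports less GPX4 and GCH1 protein in PS cells than in parental PC9, unlike the RNA of either gene here.

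**Figure D1:**
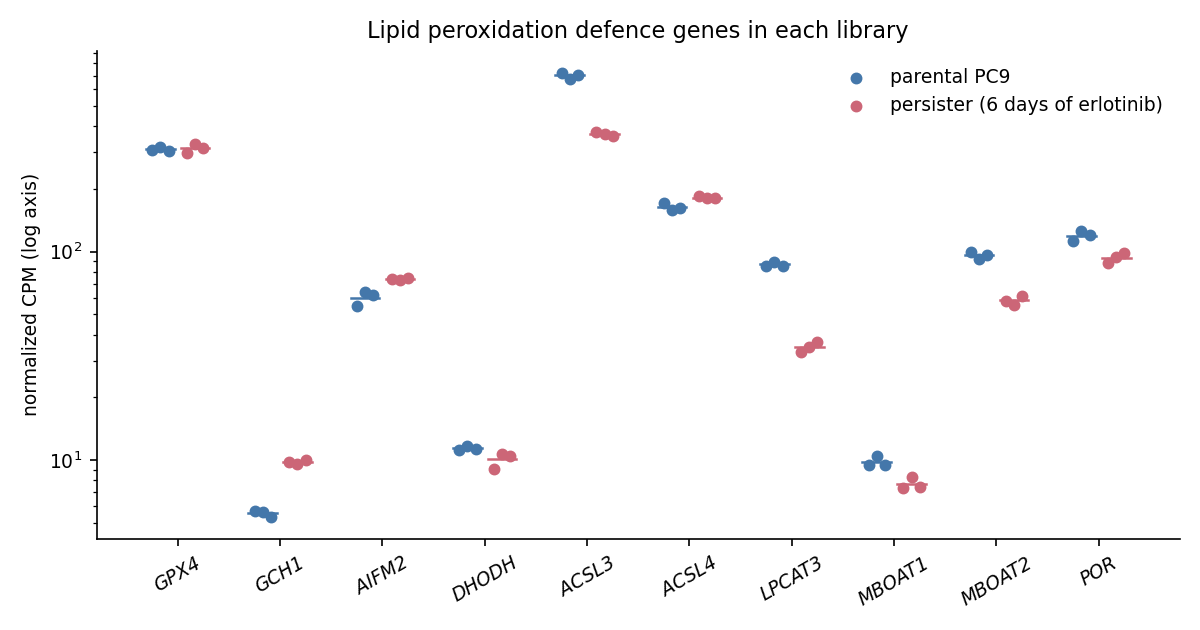
CPM (log axis) of each of the 10 genes in the 3 parental PC9 libraries (blue) and the 3 persister libraries (red), with a bar at each group's mean. GPX4 is the only gene whose groups overlap, and ACSL3, LPCAT3, MBOAT2 and GCH1 show the widest gaps.

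**Figure D2:**
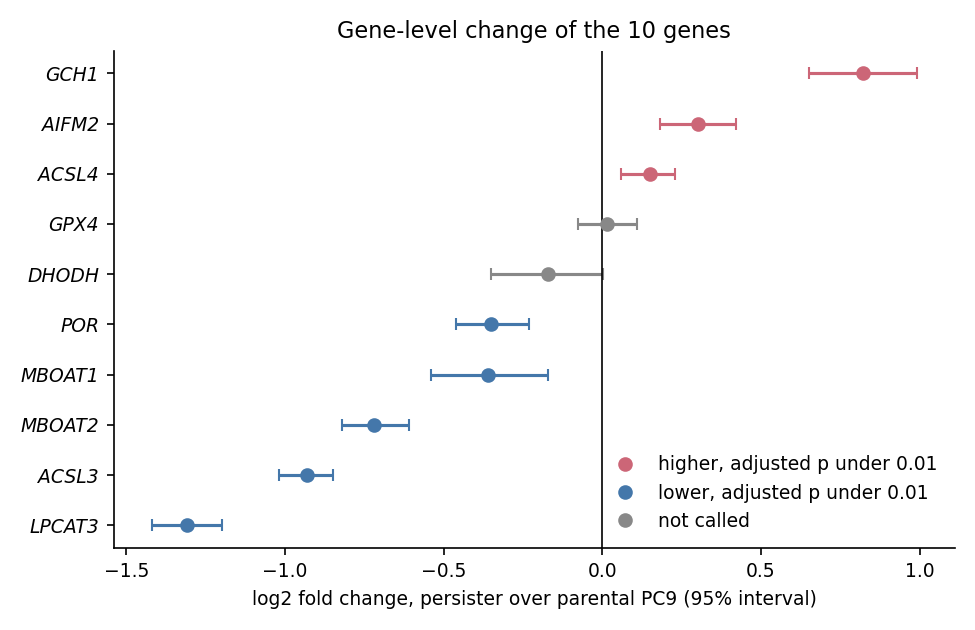
Log2 fold change of each gene, persister over parental PC9, with its 95% interval from the edgeR fit, coloured by call at an adjusted p-value under 0.01. The intervals of GPX4 and DHODH reach 0, and LPCAT3 has the lowest value (-1.31) and GCH1 the highest (0.82).

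GPX4 (ENSG00000167468, GRCh38 chromosome 19, 1103982 to 1106791) encodes the selenoenzyme that reduces phospholipid hydroperoxides in membranes. Its level was 307, 318 and 304 CPM in parental PC9 replicates 1, 2 and 3 and 297, 327 and 314 CPM in PS replicates 1, 2 and 3. The lowest and the highest library were both PS libraries, and the groups overlapped. The log2 fold change was 0.015 with a 95% interval from -0.077 to 0.11 (edgeR adjusted p = 0.765), and its sign turned under upper-quartile normalization (-0.028), under scaling by library size only (-0.039) and without PS replicate 2 (-0.017). A change beyond that interval in either direction was therefore not seen, at 8670 to 10821 counts per library. The 3 genes whose centred log2 CPM lay nearest to that of GPX4 over the 6 libraries were MDH2, PRKAB1 and SNRNP70, with root mean square differences of 0.0138, 0.0146 and 0.0149. No test was made of this nearness.

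At the transcript level GPX4-210, a form without the mitochondrial leader, held 92.2% to 94.2% of the GPX4 transcript counts in parental PC9 and 92.2% to 93.2% in PS cells. Its log2 fold change was -0.008 (adjusted p = 0.939 over all transcripts tested), and the sign turned without parental replicate 2 (0.002) and without PS replicate 1 (0.033). GPX4-201, GPX4-202 and GPX4-207, each under 5% of the gene, were singled out after their values were seen. GPX4-201, a form with the leader, had 168, 224 and 189 counts in parental PC9 and 288, 260 and 334 counts in PS cells. Every PS library lay above every parental library, but the log2 fold change of 0.68 (standard error 0.16) did not pass the limit (adjusted p = 0.0374). GPX4-201 made up 1.94% ± 0.269 of the pair in parental PC9 and 3.12% ± 0.432 in PS cells (SD, n = 3), a difference for which the exact permutation test gave p = 0.1, the smallest value that 3 libraries against 3 allow. GPX4-207, the other form with the leader, had 185, 269 and 154 counts in parental PC9 and 115, 153 and 108 counts in PS cells, with a log2 fold change of -0.60 that did not pass (adjusted p = 0.216). Summed, both leader forms were at 10.3, 14.7 and 10.4 CPM in parental PC9 and at 13.7, 13.1 and 12.9 CPM in PS cells. The groups overlapped in this sum (exact permutation test, p = 0.4), which was chosen after the values were seen. GPX4-201 and GPX4-210 differ only in the 58 bases at the start of exon 1, so few reads tell them apart. GPX4-202, which begins in another first exon, had 34 to 58 counts in parental PC9 and 54 to 74 in PS cells, and the groups overlapped.

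GCH1 (ENSG00000131979, chromosome 14, 54842008 to 54902826) encodes GTP cyclohydrolase 1, which carries out the first and rate-limiting step of tetrahydrobiopterin synthesis. Its counts were 196, 192 and 180 in parental PC9 and 286, 303 and 343 in PS cells, which corresponded to 5.7, 5.64 and 5.35 CPM and to 9.8, 9.63 and 10.0 CPM. No PS library came near the parental range, and the level was 1.77-fold higher in PS cells, with a log2 fold change of 0.82, a standard error of 0.0782 and an adjusted p = 4.07e-06. GCH1 was the largest rise among the 10 genes and stood at percentile 91.8 of the log2 fold changes over all genes tested. The genes nearest to it in centred log2 CPM over the 6 libraries were MTOR, NEDD9 and POLR1A, with root mean square differences of 0.0218, 0.0265 and 0.0279. Their log2 fold changes were 0.84, 0.84 and 0.83, so the nearness reflects a like difference between the groups. It is a description without a test.

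The rise of GCH1 could not be assigned to a transcript. GCH1-204, which encodes the 250 residue enzyme, had 168, 107 and 0 counts in parental PC9 and 169, 276 and 331 counts in PS cells. GCH1-201, annotated without a coding sequence and 15 bases shorter, had 25, 0 and 173 counts in parental PC9 and 111, 16 and 0 counts in PS cells. Where 1 of the transcripts was at 0 the other held nearly all the matched counts, and the split moved between replicates by more than between groups. Of the 192 gene counts of parental replicate 2, 85 were on transcripts that were not matched to the annotation used. Neither transcript passed the test (adjusted p = 0.482 and 0.913), and the log2 fold change of the gene was 1.02 when its counts were summed from matched transcripts.

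**Figure D3:**
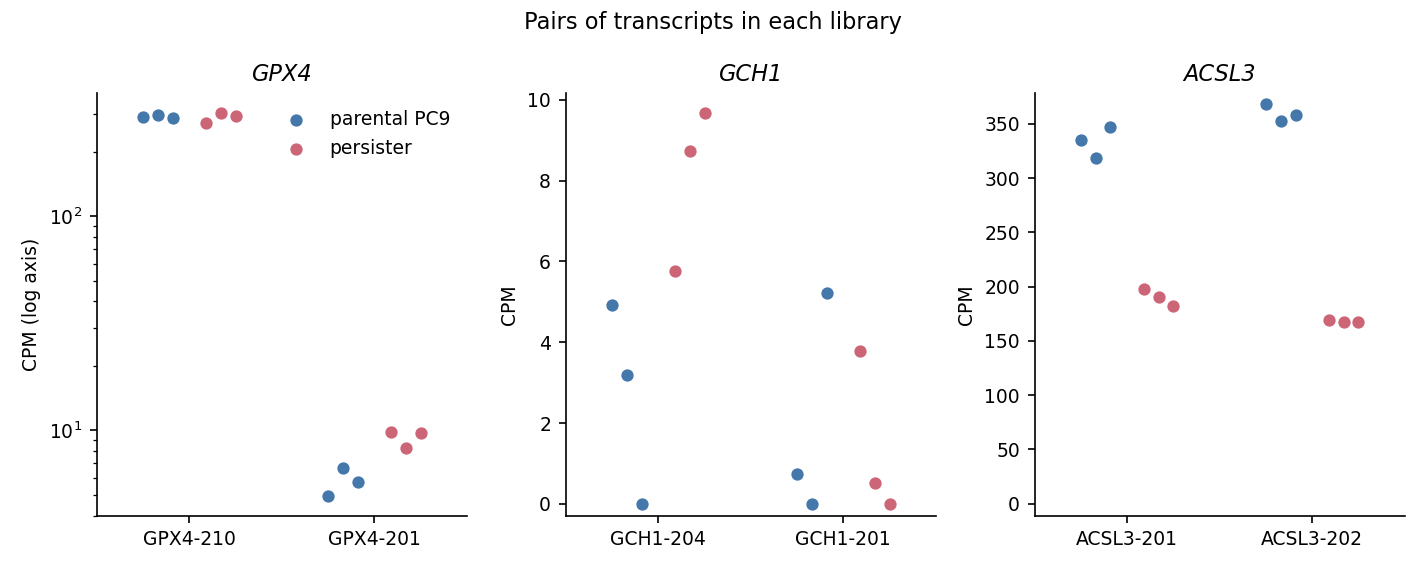
CPM of the 2 compared transcripts of GPX4 (log axis), GCH1 and ACSL3 (linear axes) in each parental PC9 library (blue) and each persister library (red). GPX4-210 is level, the counts of GCH1 swing between its transcripts from library to library, and both ACSL3 transcripts are lower in every persister library.

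The other tetrahydrobiopterin genes showed smaller differences. Of 5 tested, 3 were higher and 1 was lower, with a median log2 fold change of 0.28. PTS, which makes the next intermediate after GCH1, went from 16.1 ± 0.359 to 19.6 ± 1.15 CPM (log2 fold change 0.28, adjusted p = 0.00177), a call lost without PS replicate 3 (adjusted p = 0.0128). SPR, the sepiapterin reductase that completes the synthesis, was at 27 and 27.2 CPM, a log2 fold change of 0.009 whose sign turned in 5 of 15 alternatives, among them scaling by library size only. QDPR, which regenerates tetrahydrobiopterin, was higher by 0.36 on the log2 scale, and PCBD2, a dehydratase of the same recycling route, by 0.44. PCBD1 fell by 0.20 on the log2 scale, and its call was lost without parental replicate 3, PS replicate 1 or PS replicate 3 (adjusted p between 0.0129 and 0.0201). GCHFR, which encodes the feedback regulator of GCH1, did not pass the expression filter, at 0.108 CPM in parental PC9 and 0.0106 CPM in PS cells.

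AIFM2 (ENSG00000042286, chromosome 10, 70098223 to 70132934) encodes FSP1, an oxidoreductase that regenerates the reduced form of coenzyme Q at membranes. Its level was 54.7, 63.7 and 61.8 CPM in parental PC9 and 73.9, 73.5 and 74.7 CPM in PS cells. The PS libraries lay close together and above the parental range. AIFM2 was 1.23-fold higher in PS cells (log2 fold change 0.30, standard error 0.0551, adjusted p = 0.000569). Its transcripts AIFM2-201 and AIFM2-204 encode the same 373 residues and had log2 fold changes of 0.23 and 0.60 that did not pass the test over transcripts (adjusted p = 0.119 and 0.0377).

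DHODH (ENSG00000102967, chromosome 16, 72008588 to 72027664) encodes the mitochondrial dihydroorotate dehydrogenase, which passes electrons to coenzyme Q while making pyrimidines. Its level was 11.2, 11.7 and 11.3 CPM in parental PC9 and 9.08, 10.7 and 10.5 CPM in PS cells. The PS libraries all lay below the parental ones, but PS replicate 1 stood well under the other two. The log2 fold change of -0.17 (95% interval from -0.35 to 0.002) did not pass (adjusted p = 0.0733). Of the 2 other genes of pyrimidine synthesis, CAD, whose product carries out the first steps, was higher by 0.69 on the log2 scale (adjusted p = 3e-07). UMPS, which completes the synthesis, was at 44.3 and 44.2 CPM, with a log2 fold change of -0.002 whose sign turned in 5 of 15 alternatives, RLE normalization among them.

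POR (ENSG00000127948, chromosome 7, 75899200 to 75986855) encodes cytochrome P450 oxidoreductase, which passes electrons from NADPH and is known to promote phospholipid peroxidation. Its level was 112, 125 and 119.6 CPM in parental PC9 and 87.9, 94.6 and 98.1 CPM in PS cells. The lowest parental library stood above the highest PS library. POR was 1.27-fold lower in PS cells (log2 fold change -0.35, standard error 0.0523, adjusted p = 0.000143). Its leading transcript POR-218, with 94% of the gene's counts in parental PC9 and 93.9% in PS cells, had a log2 fold change of -0.38 that did not pass the test over transcripts (adjusted p = 0.0159). POR shares 25 exon bases with TMEM120A on the opposite strand, a gene with 559 to 573 counts in parental PC9 and 327 to 410 in PS cells. The part of that overlap in the result was not tested.

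ACSL3 (ENSG00000123983, chromosome 2, 222860942 to 222944639) encodes an acyl-CoA synthetase known to activate monounsaturated fatty acids, whose chains do not carry the peroxidation reaction. Its counts ran from 10948 in a PS library to 24783 in a parental library, the highest counts of the 10 genes. The level was 720.1, 674 and 707 CPM in parental PC9 and 375, 367 and 357 CPM in PS cells. Every PS library was near one level, far below the parental range. ACSL3 was 1.91-fold lower in PS cells (log2 fold change -0.93, standard error 0.0378, adjusted p = 5.04e-09), at percentile 7.22 of the log2 fold changes of all genes tested.

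Both main ACSL3 transcripts encode the same 720 residues and differ at their ends, with ACSL3-202 2430 bases shorter than ACSL3-201. ACSL3-201 fell by 0.81 on the log2 scale and ACSL3-202 fell by 1.10 (adjusted p = 0.000286 and 2.7e-05 over all transcripts). ACSL3-202 made up 52.3%, 52.6% and 50.8% of the pair in parental PC9 and 46.2%, 46.8% and 47.9% in PS cells. The shares did not overlap, and the exact permutation test gave its smallest possible p of 0.1.

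ACSL4 (ENSG00000068366, chromosome X, 109624244 to 109733403) encodes the acyl-CoA synthetase that prefers arachidonic and other long polyunsaturated fatty acids, the substrates of lipid peroxidation. Its level was 172, 159 and 162 CPM in parental PC9 and 184, 180.1 and 181 CPM in PS cells. The groups were separate by a small margin, with parental replicate 1 nearest to the PS libraries. ACSL4 was 1.11-fold higher (log2 fold change 0.15, standard error 0.0397, adjusted p = 0.00708). The call was lost under upper-quartile normalization (adjusted p = 0.0452), under scaling by library size only (0.0531), and without parental replicate 2 (0.0183), parental replicate 3 (0.0385), PS replicate 1 (0.0247), PS replicate 2 (0.0206) or PS replicate 3 (0.0266), while the direction was kept in all 15 alternatives. Its transcript ACSL4-202 encodes 670 residues and ACSL4-204 encodes 711 residues, and neither passed the test, with log2 fold changes of 0.17 and -0.007.

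Per kilobase of transcript, ACSL3 was 4.94, 5.01 and 5.15 times as abundant as ACSL4 in parental PC9 and 2.41, 2.41 and 2.32 times as abundant in PS cells. The ratio fell in every PS library below every parental one (exact permutation test, p = 0.1, the smallest this design allows). The other acyl-CoA synthetases were mostly lower as well. Of 12 tested, 7 were lower and 2 were higher, with a median log2 fold change of -0.45, beside -0.006 over all genes. The lowest was SLC27A5 (-1.43), followed by SLC27A1 (-1.34), both fatty acid transport proteins with synthetase activity. ACSS2, which makes acetyl-CoA from acetate, fell by 0.89 on the log2 scale and ACSL1 fell by 0.64. SLC27A4, a further fatty acid transport protein, was higher by 0.84.

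LPCAT3 (ENSG00000111684, chromosome 12, 6976185 to 7018477) encodes the acyltransferase that places polyunsaturated chains into phosphatidylcholine and phosphatidylethanolamine. Its level was 85.4, 89.3 and 85.7 CPM in parental PC9 and 33, 34.9 and 36.8 CPM in PS cells. The parental libraries stood within a narrow range, far above the highest PS library. LPCAT3 was 2.49-fold lower in PS cells, the largest change of the 10 genes (log2 fold change -1.31, standard error 0.0491, adjusted p = 2.72e-09), and it was the only one of them past a fold of 2. A single transcript, LPCAT3-201 with 487 residues, held 95.6% to 97.3% of the counts in every library and fell by 1.34 on the log2 scale (adjusted p = 9.6e-05). LPCAT3-201 shares 1506 of its 2235 bases with exons of EMG1 on the opposite strand, and EMG1 had 2059 to 2167 counts in parental PC9 and 2072 to 2508 in PS cells. Whether strand was used in the counting is not given in the sources used here, and without it reads of LPCAT3 and EMG1 in the shared bases cannot be told apart.

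MBOAT2 (ENSG00000143797, chromosome 2, 8852690 to 9003709) encodes a lysophospholipid acyltransferase known to place monounsaturated chains into phosphatidylethanolamine. Its level was 99.4, 92.4 and 96.1 CPM in parental PC9 and 58.2, 55.4 and 61.6 CPM in PS cells. The groups were far apart, and MBOAT2 was 1.64-fold lower in PS cells (log2 fold change -0.72, standard error 0.049, adjusted p = 2.92e-07). MBOAT2-201, which encodes the 520 residue protein, fell by 0.87 on the log2 scale (adjusted p = 0.000363). Its share of the gene's counts was 81.4%, 81.4% and 82.5% in parental PC9 and 76.8%, 74.1% and 73.6% in PS cells (exact permutation test, p = 0.1). The 3 shorter transcripts that made up most of the rest, MBOAT2-204, MBOAT2-207 and MBOAT2-209, do not encode the full protein and had log2 fold changes of -0.52, -0.40 and -0.025, none past the limit.

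MBOAT1 (ENSG00000172197, chromosome 6, 20099684 to 20212469) encodes the related acyltransferase of the same kind. Per kilobase of transcript it was at 2.27 ± 0.136 CPM in parental PC9, against 15.3 ± 0.559 CPM for MBOAT2. Its level was 9.47, 10.5 and 9.47 CPM in parental PC9 and 7.33, 8.26 and 7.4 CPM in PS cells. The highest PS library stood below the lowest parental one. MBOAT1 was 1.28-fold lower in PS cells (log2 fold change -0.36, standard error 0.084, adjusted p = 0.00309). The call was lost without parental replicate 2 (adjusted p = 0.0102), PS replicate 1 (0.0149) or PS replicate 3 (0.0163).

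The other lysophospholipid and glycerol-phosphate acyltransferases moved in both directions. Of 14 tested, 4 were higher and 5 were lower, with a median log2 fold change of -0.020. LPCAT1, which mainly remodels phosphatidylcholine with saturated chains, was higher by 0.81 on the log2 scale, while its relative LPCAT4 fell by 1.06. Among the enzymes that start glycerolipid synthesis, GPAT4 was higher by 0.89 and GPAT3 fell by 1.09. Relative to LPCAT3 per kilobase, MBOAT2 went from 0.396 ± 0.0235 in parental PC9 to 0.6 ± 0.0321 in PS cells, since LPCAT3 fell further than MBOAT2. The exact permutation test of this ratio gave p = 0.1, the smallest this design allows.

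Over the transcripts that made up 5% or more of their gene, 18 in all, 4 were lower in PS cells and 0 were higher by edgeR. Over all 54499 transcripts tested, 3.91% were lower and 3.89% were higher. That larger set also holds transcripts under 5% of their gene, so the shares are not like for like. At an unadjusted p-value under 0.05 in edgeR's test, 8 of the 18 were lower and 3 were higher. No share over all transcripts is given at that limit, so these 2 counts are not read as a result. By limma voom 0 of the 18 were called higher. The 4 lower by edgeR were ACSL3-201, ACSL3-202, LPCAT3-201 and MBOAT2-201. The test of transcript usage by edgeR's diffSpliceDGE called 0 of the 9 genes with 2 or more tested transcripts, beside 1.88% of all genes called. Of the 9 genes 0 had an unadjusted Simes p-value under 0.05, a limit at which no share over all genes is given.

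Levels per length were compared by dividing CPM by the mean transcript length of each gene, weighted by transcript counts. In parental PC9 the order from high to low was GPX4 at 389.5, ACSL3 at 164, POR at 49, LPCAT3 at 38.7, ACSL4 at 32.6, AIFM2 at 19.1, MBOAT2 at 15.3, DHODH at 2.87, MBOAT1 at 2.27 and GCH1 at 1.92 CPM per kilobase. No neighbours in that order overlapped over the 3 libraries. In PS cells GPX4 at 394 and ACSL3 at 85.7 CPM per kilobase stayed first, and POR (38.5 ± 2.13) and ACSL4 (36 ± 0.37) overlapped and did not differ beyond their spread. LPCAT3 moved from the fourth place to the sixth, behind AIFM2, and GCH1 from the last place to the eighth, ahead of DHODH and MBOAT1.

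**Figure D4:**
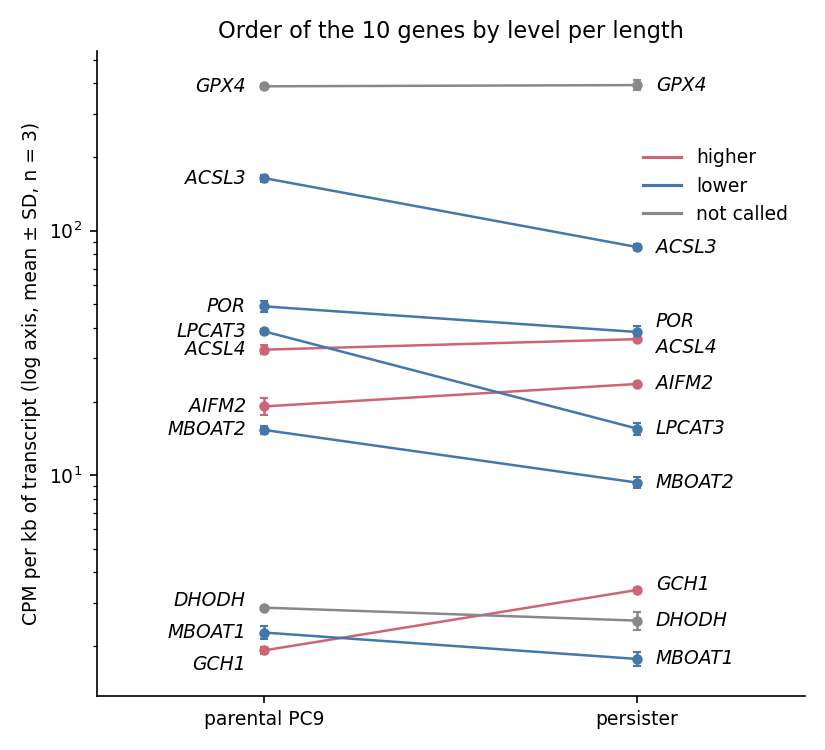
CPM per kilobase of transcript (log axis) of the 10 genes, as mean ± SD over 3 libraries, in parental PC9 (left) and persister cells (right), with lines coloured by the gene-level call. LPCAT3 crosses below AIFM2 and GCH1 crosses above DHODH and MBOAT1, while GPX4 stays first.

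Genes around these pathways were counted in the same fit. Of 109 tested genes in 10 lists, 36 were higher and 35 were lower, which is 33% and 32.1% beside the 28.7% and 28.1% over all genes. The median log2 fold change was 0.009. Leaving out each library gave 29 to 38 higher and 28 to 36 lower calls, and DESeq2 gave 35 and 30. The share over all genes in those settings is not given. Calls of single genes in these lists were lost in up to 8 of 15 alternatives.

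Among 9 tested genes that make selenoproteins such as GPX4, 3 were higher and 3 were lower. LRP8, a receptor that takes up selenium carried by selenoprotein P, fell by 0.70 on the log2 scale, from 94.6 ± 0.536 to 58.5 ± 2.76 CPM. TRNAU1AP, which binds the selenocysteine transfer RNA, fell by 0.64. SEPHS1 was higher by 0.31 and EEFSEC, the elongation factor for selenocysteine codons, by 0.36. Of 14 coenzyme Q genes, 1 was higher and 4 were lower, and 9 did not pass. PDSS1, a subunit of the enzyme that makes the isoprenoid tail, was the one higher (0.70), and COQ8A, COQ8B and COQ4 fell by 0.62, 0.43 and 0.41.

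Of 20 other peroxide reducing or radical trapping proteins 7 were higher and 9 were lower. TXNRD1, the cytosolic thioredoxin reductase, went from 1954 ± 30.4 to 3009 ± 27.1 CPM (log2 fold change 0.62, adjusted p = 2.5e-08). GPX3, a secreted glutathione peroxidase, was higher by 1.12 on the log2 scale, while GPX2, a cytosolic one, fell by 0.94 and PRDX5, a peroxiredoxin, fell by 0.95.

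Of 11 tested peroxidation and electron transfer enzymes 5 were higher and 2 were lower. ALOX5, the arachidonate 5-lipoxygenase, had the largest fall of all the related genes, from 45.7 ± 2.18 to 7.85 ± 0.171 CPM (log2 fold change -2.54, adjusted p = 1.02e-10). CYB5R1, a reductase that acts beside POR in electron transfer, was higher by 0.87, opposite to POR, and CYB5A fell by 0.29. ALOX15, a lipoxygenase that oxidizes phospholipids, was higher by 0.61 at low levels of 3.01 and 4.58 CPM. CYBB, a catalytic subunit of NADPH oxidase, was higher by 1.14 at 0.489 and 1.09 CPM, a call lost without parental replicate 3, PS replicate 1 or PS replicate 3 (adjusted p between 0.0122 and 0.0137).

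Of 12 phospholipase A2 enzymes, which cut acyl chains out of phospholipids, 5 were higher and 2 were lower. PLA2G6, a calcium-independent enzyme, fell by 1.21 on the log2 scale and PAFAH1B3 fell by 0.34. PLA2G15, a lysosomal enzyme, was higher by 0.45. PLA2G4C was higher by 3.17, from 0.196 ± 0.0429 to 1.79 ± 0.289 CPM. Of 10 genes of ether phospholipid synthesis, which makes lipids rich in polyunsaturated chains, 5 were higher and 2 were lower. CHPT1, which adds the choline head group, was higher by 1.01 and SELENOI, a selenoprotein that adds the ethanolamine head group, by 0.50. FAR1, which supplies the fatty alcohol, was higher by 0.34, while its relative FAR2 fell by 0.41.

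**Figure D5:**
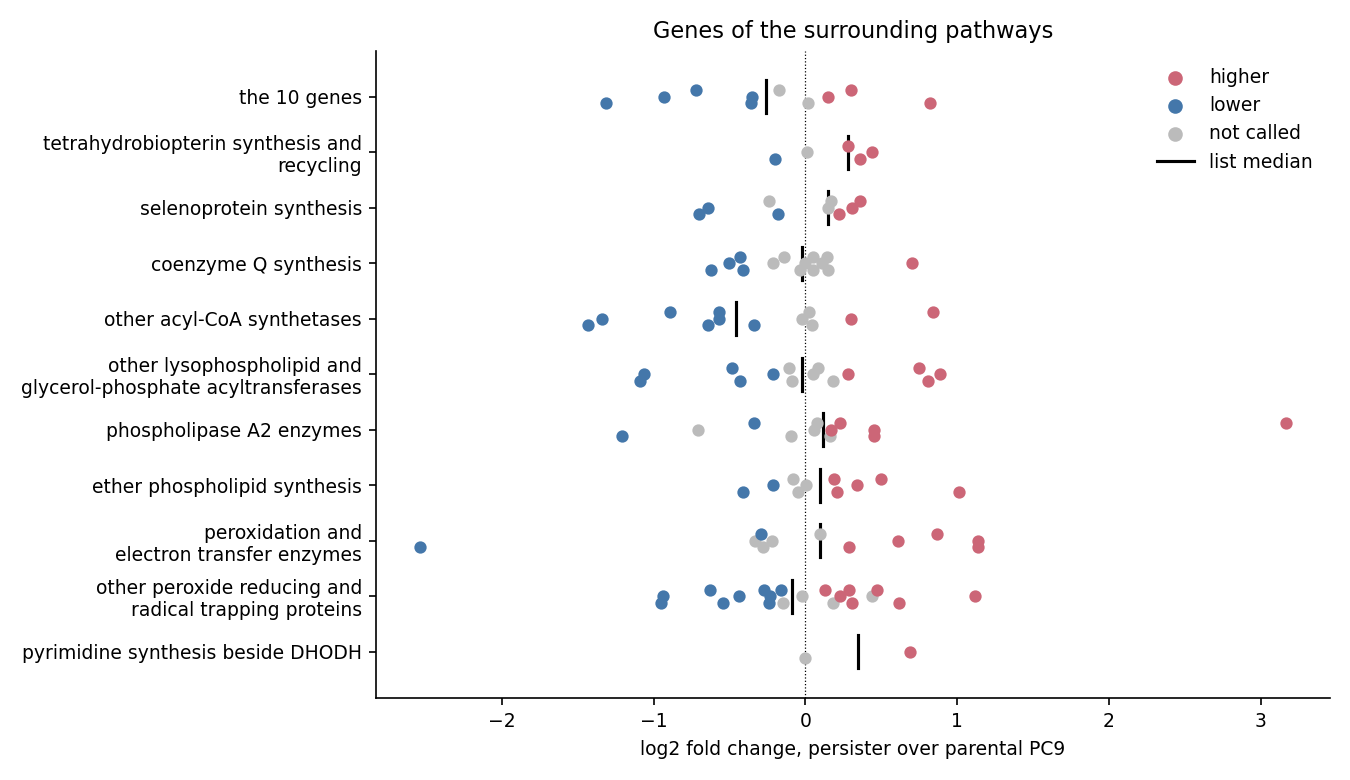
Log2 fold changes, persister over parental PC9, of the 10 genes and of the tested genes in 10 surrounding lists, coloured by call, with a black bar at each list's median. The other acyl-CoA synthetases have the lowest median (-0.45), ALOX5 is the lowest point (-2.54) and PLA2G4C the highest (3.17).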

How the data were processed

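RNA of PC9 cells was poly-A enriched and sequenced by the authors, who trimmed and filtered the reads and assigned them to Ensembl 96 transcripts (GRCh38) with Kallisto 0.46.1. The deposited values are estimated counts from Kallisto, rounded to whole numbers and not normalized, in a gene table and a transcript table. Groups and replicate numbers came from the labels, and dose and culture numbers from the study's methods. The uncertainty of dividing reads between similar transcripts enters no test.

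Both tables were fitted in edgeR 4.0.16 under R 4.3.3 (filterByExpr, TMM, glmQLFit, glmQLFTest, Benjamini-Hochberg over all features tested, limit 0.01). Standard errors are the log2 fold change divided by the root of F. Usage was tested with diffSpliceDGE, and shares and ratios with exact permutation tests, two-sided. The scripts were tested on simulated data. Coordinates are from GENCODE 44, which matched 167067 of 188753 transcripts with 95.8% of transcript counts, and promoters from RefSeq, where 7 of the 10 genes had an entry (not GCH1, MBOAT1 or POR). Alternatives were DESeq2 1.42.0, limma 3.58.1, other scalings, filters and limits, counts summed from transcripts, a replicate block and each library left out. At totals of 29476725 to 34893782 counts per library, the spread between replicates limits precision for genes with many counts. For GCH1, MBOAT1 and DHODH low counts limit it as well. Genes were kept whatever their values. From each surrounding list those with the 4 smallest p-values and the extreme fold changes are named, and the tetrahydrobiopterin and pyrimidine genes. A further gene planned for these lists is not reported here. The sum of both GPX4 leader forms was added after seeing the data. The 10 genes and the lists were chosen with earlier results of these data known. Figures were drawn with matplotlib 3.10.9.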

Additional observations from a re-analysis of the deposited data

How the results depend on the processing

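The 5 lower calls among the 10 genes were 5 in every alternative scaling, filter and tool, and the 3 higher calls were 2 under upper-quartile and library-size scaling, where ACSL4 was lost. Leaving out each library gave 2 or 3 higher and 4 or 5 lower calls. With a fold change above 2 required, the 10 genes kept 0 higher and 1 lower calls, and the related genes 5 higher and 6 lower calls in place of 36 and 35. The share of all genes tested under that rule is not given, so these counts are not read against the series. Replicate numbers did not pair the libraries. This was judged from the log2 CPM of each gene minus its group mean, not from how alike whole libraries were. In these deviations same-numbered libraries had correlations of 0.123, 0.023 and 0.005, and not every library correlated best with its own number. With a replicate block the 10 genes had 3 higher and 5 lower calls, the related genes 37 and 36, and the described transcripts 0 and 4. GPX4 turned sign under upper-quartile normalization (-0.028) and library size only (-0.039), and with each library left out it ranged from -0.017 to 0.053. Among transcripts, leaving out each library gave -0.14 to 0.078 for ACSL4-204, -0.049 to 0.033 for GPX4-210, -0.19 to 0.063 for MBOAT2-209 and -2.96 to 1.95 for GCH1-201, which was 1.18 with the replicate block, and none of these passed the limit in any alternative. The cause was not tested. Leading-transcript shares cannot pass a limit with 3 libraries against 3. Low counts limit GCH1, MBOAT1 and DHODH most.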
